A study of Mus musculus with 4 samples.

Results

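General capillary cells are the capillary endothelial cells of the lung that carry Plvap and Aplnr and lack the markers of aerocytes. They were chosen by their own UMIs, as endothelial cells with at least 3 UMIs (unique molecular identifiers, counted transcripts) summed over Gpihbp1, Glp1r, Npr3, Kit, Cadm1 and Bmp6. The rule also allowed at most 1 UMI over the aerocyte genes Car4, Ednrb, Fibin, Tbx2, Chst1 and Apln, and at most 2 UMIs over Ntrk2, Sema3c, Gja4 and Wfdc1, which mark capillaries near arterioles. Cells with any UMI of Gja5, Bmx, Slc6a2, Mmrn1, Mki67 or Top2a were left out, to reduce arterial, venous, lymphatic and dividing cells. Some cells with UMIs of other venous genes remained, as given below. The rule took 2215 cells among 14854 endothelial cells, which in turn stood among 23723 cells kept from 34683 deposited barcodes.

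In the mouse lung, general capillary cells line the alveolar capillary net together with the larger, thinner aerocytes, which lie against the alveolar epithelium. They are known to divide after injury and to give rise to both capillary types. They display lipoprotein lipase through Gpihbp1, present antigen on MHC class II, and carry receptors for apelin and stem cell factor.

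The series holds 4 droplet libraries of lung cells depleted of CD45+ cells and selected for CD31, 1 library for each group. The groups were conditional Foxo1 knockout mice after PNX (Foxo1cKO PNX), conditional M3 knockout mice after PNX (M3cKO PNX), wild-type mice after PNX (WT PNX) and mice after a sham operation (sham). PNX, pneumonectomy, is the surgical removal of part of the lung, and cells were taken on day 7 after it. The sources used here do not say which promoter drives the knockouts, which gene M3 is, or how many animals of what sex and age went into a library.

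The rule found 273 general capillary cells in Foxo1cKO PNX, 419 such cells in M3cKO PNX, 358 cells in WT PNX and 1165 cells in sham. Together these cells held 541876, 688689, 767406 and 1883254 UMIs in that order of libraries, with a median per cell of 1652, 1460, 1789 and 1472. Between libraries there is no replicate, so no p-value is given, and intervals there cover counting error only. Among them, the female type, with Xist but without Y-linked UMIs, numbered 46 in Foxo1cKO PNX, 0 cells in M3cKO PNX, 111 cells in WT PNX and 0 cells in sham, and the male type, with Y-linked UMIs but without Xist, 42, 89, 33 and 234. Cells that shared a barcode between 2 libraries numbered 68 to 111 a pair, and 1 such barcode, shared by M3cKO PNX and sham, was a general capillary cell in both. The 14 epithelial genes that mark carried transcripts summed to 4232 CPM (counts per 1000000 UMIs) in Foxo1cKO PNX, 608 CPM in M3cKO PNX, 5698 CPM in WT PNX and 582 CPM in sham. Of the UMIs of Sftpc, the surfactant protein C gene of alveolar type 2 cells, 1 cell held 1451 of 1459 in Foxo1cKO PNX and 2585 of 2761 in WT PNX.

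General capillary cells made up 7.16% of endothelial cells in Foxo1cKO PNX (95% Clopper-Pearson interval 6.36 to 8.03%), 16.8% in M3cKO PNX (15.4 to 18.3%), 9.21% in WT PNX (8.32 to 10.2%) and 25.0% in sham (23.7 to 26.2%). The exclusions of the rule took more cells after PNX. Of endothelial cells with 3 or more marker UMIs, they removed 2155 of 2428 cells in Foxo1cKO PNX, 1261 of 1680 cells in M3cKO PNX, 2324 of 2682 cells in WT PNX and 2269 of 3434 in sham. The arteriole genes removed the most in each library, led by Sema3c, a secreted semaphorin, which alone passed 2 UMIs in 1499, 787, 1404 and 1259 of these cells. The removed cells were deeper than the kept ones, with medians of 2707, 2447, 2894 and 2027 UMIs. The shares are therefore shares under this gate. With each cell thinned to 1500 UMIs they were 8.32, 17.3, 12.3 and 26.0%, so the order of the libraries was the same; the part of the Sema3c level in them was not tested. Among male-type cells the order of a pair of libraries changed, with 7.32% in Foxo1cKO PNX and 4.14% in WT PNX.

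The 6 marker genes chose the cells, so their levels are a description. Gpihbp1, which anchors lipoprotein lipase to the capillary wall, stood at 814 CPM in Foxo1cKO PNX, 1019 CPM in M3cKO PNX, 824 CPM in WT PNX and 1142 CPM in sham. Kit, the stem cell factor receptor, stood at 786, 722, 636 and 752 CPM in the same libraries. Glp1r, the receptor for glucagon-like peptide 1, was at 840, 810, 1104 and 1675 CPM. Kit was thus nearly level across libraries, while Glp1r was highest in sham. Just inside the gate, cells with 3 marker UMIs had Cd93 at 3006 CPM in Foxo1cKO PNX, 4234 CPM in M3cKO PNX, 1907 CPM in WT PNX and 2418 CPM in sham. Just outside it, cells with 2 marker UMIs had 1863, 3766, 2007 and 2382 CPM. Vwf, a gene of larger vessels, was at 2300, 562, 2660 and 1262 CPM just inside and at 3968, 523, 3778 and 2069 CPM just outside. In 3 of the 4 libraries, cells at the edge of the gate thus held more Vwf outside it than inside.

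Against aerocytes, genes that the rule did not use fitted the label in the main. The lists of these genes were chosen with earlier results of these data known, so they describe the cells and do not test the label. Plvap, which forms the diaphragms of endothelial caveolae, was at 6319 CPM in Foxo1cKO PNX, 5217 CPM in M3cKO PNX, 5605 CPM in WT PNX and 6693 CPM in sham. Cd93, a transmembrane receptor of endothelial cells, was at 3135, 3907, 2929 and 2993 CPM. Aplnr, the apelin receptor, was at 277, 105, 323 and 320 CPM. Each of these genes was higher in general capillary cells than in aerocytes in every library. Of the 10 further general capillary genes, 7 were higher than in aerocytes, 3 were lower (Scn7a, Cd36 and Clec1a), and the 10 further aerocyte genes were all lower. Set against venous cells, chosen as given below, the lists parted less. There 5 of the 10 general capillary genes were higher and 1 lower, and 8 of 9 further aerocyte genes tested were higher.

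**Figure D1:**
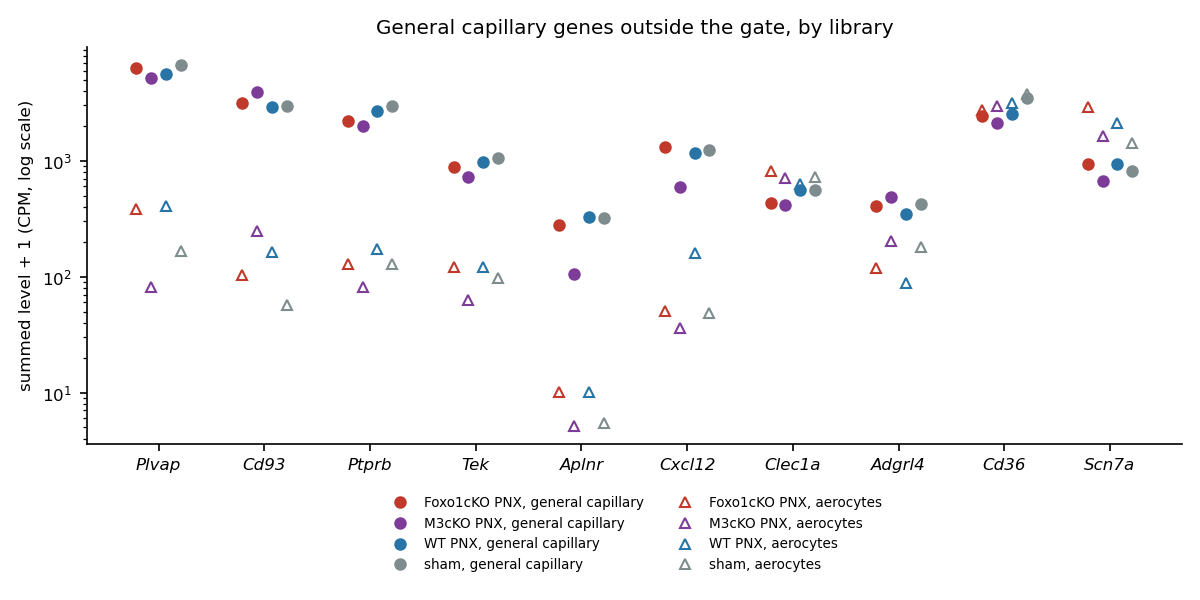
Levels of 10 general capillary genes outside the rule, as CPM + 1 on a log axis, in general capillary cells (filled circles) and aerocytes (open triangles) of each library. Plvap, Cd93, Ptprb, Tek, Aplnr, Cxcl12 and Adgrl4 lie above the aerocytes in all 4 libraries, while Scn7a and Cd36 lie below them.

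Against aerocytes, general capillary cells were compared over the 4 libraries with edgeR's quasi-likelihood test and the library as a block. Of 7985 genes tested, 1532 were higher (19.2%) and 1383 lower (17.3%) in general capillary cells at an adjusted p under 0.05. The 2 cell types were cut from the same libraries by other genes, so the tests bear on genes that the rule did not name. The genes highest over aerocytes included secreted factors. Vegfa, the vascular growth factor, averaged 1263 ± 290 CPM in general capillary cells and 43.1 ± 15.6 CPM in aerocytes (SD, n = 4 libraries), a log2 fold change of 4.90 ± 0.16 (SE, edgeR adjusted p = 1.85e-12). Edn1, which encodes the vasoconstrictor endothelin 1, averaged 586 ± 165 CPM against 18.3 ± 10.6 CPM in aerocytes. Aplnr was higher by 5.26 ± 0.20 on the log2 scale (edgeR adjusted p = 9.11e-12). Its ligand gene Apln belongs to the aerocyte genes of the rule.

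Ackr4, a receptor that scavenges the chemokines CCL19 and CCL21, had the largest log2 fold change of the named genes, 6.14 ± 0.35. It was followed by Esm1 (endocan, a secreted proteoglycan) at 5.52 ± 0.40 and by Mcf2l, a guanine nucleotide exchange factor, at 5.45 ± 0.21. Hey1, a transcriptional target of Notch, was higher by 4.63 ± 0.15, with 361 ± 43.4 CPM against 14.3 ± 1.55 CPM in aerocytes. Gata3, a transcription factor, was higher by 4.75 ± 0.36, Frmd4a, a scaffold protein of cell polarity, by 4.64 ± 0.25, and Pcsk5, a proprotein convertase, by 4.61 ± 0.36. Tek, the angiopoietin receptor Tie2, was higher by 3.14 ± 0.13, and Foxo1 itself by 2.02 ± 0.16. These genes were higher in general capillary cells in 4 of 4 libraries.

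The lower genes held the VEGF receptor Kdr, which averaged 742 ± 140 CPM in general capillary cells and 4145 ± 783 CPM in aerocytes (log2 fold change -2.54 ± 0.10, edgeR adjusted p = 1.89e-11). Emp2, a tetraspan membrane protein, differed by -3.91 ± 0.22 and Igfbp7, a secreted growth factor binding protein, by -3.20 ± 0.30. Dpysl5, of the collapsin response mediator family, was lowest at -7.32 ± 0.40. Tmeff2 followed at -7.00 ± 0.28, the integrin chain Itgb5 at -6.50 ± 0.31 and Sirpa, the receptor for CD47, at -5.74 ± 0.26. Vegfa was thus high in the cells with less of its receptor Kdr.

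Several gene lists were higher than in aerocytes. Of the 8 arterial genes tested, 8 were higher in general capillary cells (median log2 fold change 2.99), and of the 7 carried epithelial genes tested, 6 were higher and 1 lower. The epithelial sum exceeded that of aerocytes in Foxo1cKO PNX (4232 against 1218 CPM) and WT PNX (5698 against 1497 CPM). In each of these libraries 1 cell held most Sftpc UMIs. The sum was below that of aerocytes in M3cKO PNX (608 against 1425 CPM) and sham (582 against 1755 CPM). Of 10 class II genes tested, 7 were higher in general capillary cells and 0 lower, with a median log2 fold change of 2.43 against 0.01 over all genes. H2-Ab1, a class II beta chain, averaged 888 ± 412 CPM against 136 ± 35.4 CPM in aerocytes, and Ciita, the class II transactivator, was higher by 2.97 ± 0.44 on the log2 scale. Of 27 matrix genes, 18 were higher and 5 lower (median 1.60), and of 26 angiocrine genes, which encode factors secreted by endothelium, 16 were higher and 5 lower (median 1.52). Of 41 interferon-stimulated genes, 23 were higher and 8 lower. Of 25 lipid genes, 12 were higher and 3 lower, among them Lpl, lipoprotein lipase, at 472 ± 157 CPM against 23.3 ± 6.93 CPM. Cd36, a fatty acid transporter, was lower in general capillary cells than in aerocytes in each library. Its adjusted p passed 0.05 no longer when Foxo1cKO PNX, M3cKO PNX or WT PNX was left out, with log2 fold changes of -0.35, -0.26 and -0.29.

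Venous cells were endothelial cells with at least 3 UMIs over Slc6a2, Ackr1, Selp, Vcam1, Prss23 and Vwf that the general capillary rule had not taken. They held at most 1 UMI of the aerocyte genes and none of Gja5, Bmx, Mmrn1, Mki67 and Top2a. No limit was set on general capillary markers or on Sema3c and Gja4. Against them the differences were fewer. Of 9012 genes tested with the same edgeR test, 617 were higher (6.85%) and 774 lower (8.59%) in general capillary cells. Dll4, a Notch ligand, averaged 357 ± 46.9 CPM in general capillary cells and 69.5 ± 30.6 CPM in venous cells, a log2 fold change of 2.36 ± 0.19 (edgeR adjusted p = 5.24e-07). Hey1 was higher by 1.84 ± 0.13, Esm1 by 3.43 ± 0.26, Ackr4 by 2.42 ± 0.19, Lpl by 1.47 ± 0.11 and Aplnr by 1.16 ± 0.09. Ager, a gene of alveolar type 1 cells, and Sftpc headed the list at 5.21 and 4.83, with Sftpc resting on the single cells given above; the part of carried epithelial transcripts in these differences was not tested.

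Ptgs2, which encodes the prostaglandin enzyme COX-2, was lower than in venous cells by -4.01 ± 0.29 on the log2 scale, at 31.9 ± 39.1 CPM against 406 ± 213 CPM. The transcription factor gene Foxc1 differed by -3.80 ± 0.37, the riboflavin transporter Slc52a3 by -3.79 ± 0.30 and the proteoglycan gene Bgn by -3.32 ± 0.32. Adhesion and chemokine genes were lower for 12 of 23 tested and higher for 2, and matrix genes were lower for 17 of 33 and higher for 4. Lyve1, a hyaluronan receptor, differed by only -0.80 ± 0.14 (edgeR adjusted p = 0.000866). For the matrix list, general capillary cells were thus mostly lower than these venous cells and mostly higher than aerocytes. The venous cells were chosen by the adhesion genes Ackr1, Selp and Vcam1, which were not counted. The lower adhesion list may follow in part from that choice, and this was not tested.

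After PNX, general capillary cells of wild-type mice had more transcripts of matrix, DNA replication and adhesion genes, and fewer of MHC genes, than those of sham mice. The matrix and adhesion differences were smaller when cells with venous UMIs or carried transcripts were left out, as given below. A gene was called 2-fold apart when the ratio of levels, with 5 CPM added to each, passed 2-fold and the higher library held at least 50 CPM. By that rule 151 of 4067 genes were higher (3.71%) and 80 lower (1.97%) in WT PNX. The higher genes made up 65.4% of those called, and 48.0% with TMM scaling, which moved the median over all genes by -0.10 on the log2 scale. A single cell held over 20% of the UMIs for 53 of the higher genes and 2 of the lower. For gene lists, a member counted as higher or lower at 1.5-fold with at least 20 CPM, which 13.1% of all genes passed upwards and 8.25% downwards.

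Matrix genes were higher for 24 of 34 measured members and lower for 1, with a median log2 ratio of 1.05 against 0.05 over all genes. Over the 22 matrix genes measured in both cell types, the median was 0.70 in general capillary cells and 0.59 in aerocytes. Col15a1, which encodes a basement membrane collagen, stood at 526 CPM in Foxo1cKO PNX, 212 CPM in M3cKO PNX, 528 CPM in WT PNX and 75.4 CPM in sham. Col18a1, the collagen that holds endostatin, was at 86.7, 24.7, 97.7 and 4.78 CPM in these libraries. Col4a1, the main basement membrane collagen chain, was at 3942, 2407, 2516 and 1529 CPM. All 3 collagens were lowest in sham, and Col4a1 was highest in Foxo1cKO PNX. WT PNX exceeded sham 7.00-fold in Col15a1 and 20.5-fold in Col18a1 (10.2 to 46.5). Mgp, the matrix Gla protein, was 13.5-fold higher (10.6 to 17.5), at 546 CPM in WT PNX and 40.4 CPM in sham.

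Venous transcripts differed along with these genes. The 10 venous genes summed to 3061 CPM in WT PNX general capillary cells and 1294 CPM in sham, and 9 of the 10 were higher. Cells with 3 or more UMIs over Ackr1, Selp, Vcam1, Prss23 and Vwf numbered 39 in Foxo1cKO PNX (14.3% of general capillary cells), 73 in M3cKO PNX (17.4%), 50 cells in WT PNX (14.0%) and 116 cells in sham (9.96%). These cells, and cells that held over 2% of their UMIs in transcripts of other cell types, were then left out together. Without both kinds, 12 of 25 matrix genes were higher and 2 lower in WT PNX, with a median of 0.57 for the list. Of all genes, 13.1% were higher and 8.44% lower in this setting. The same shares apply to the other lists of this pair of libraries without both kinds. Col15a1 and Col18a1 then differed by 2.02 and 2.40 on the log2 scale, against 2.73 and 3.39 in all general capillary cells. Mgp differed by 0.65 in place of 3.60, and Fgl2, a fibrinogen-like prothrombinase, by -0.63 in place of 2.68. The differences of the 2 collagens were thus smaller but still present without both kinds of cells, while that of Mgp was much smaller. Cells with 1 or 2 venous UMIs remained in this setting. In cells with at most 5% mitochondrial UMIs, the log2 ratio was 1.16 for Col15a1 and 0 for Col18a1.

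Adhesion and chemokine genes were higher for 18 of 27 members and lower for 3 in WT PNX. Without both kinds of cells, 6 of 20 were higher and 3 lower, where 13.1% of all genes were higher and 8.44% lower. The list holds Vcam1, Selp and Ackr1, which mark the removed cells, and without these 3 genes the counts in all cells were 15 of 24 higher and 3 lower. Vcam1, an adhesion molecule for leukocytes, was 17.3-fold higher (10.4 to 30.7) than in sham. It differed by 3.52 on the log2 scale in all cells and by 1.51 without both kinds, a fall to which its own place among the marking genes contributes by construction. Ch25h, cholesterol 25-hydroxylase, was 9.82-fold higher, and its log2 ratio was 2.91 in all cells and 1.53 without both kinds. Ctsh, the protease cathepsin H, was 12.9-fold higher, with a log2 ratio of 3.25 in all cells and 1.61 without both kinds. Cd79a, a B cell receptor chain, was 10.4-fold higher, with log2 ratios of 2.84 and 3.15. Pgm5, a phosphoglucomutase-like protein of cell junctions, had no UMI in sham and was at least 55.6-fold higher, counting 3 UMIs as the floor in sham. Its log2 ratio was 4.23, and 0.78 without both kinds of cells.

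Transcripts of blood cells differed along with these genes. The 12 lymphoid genes summed to 120.0 CPM in Foxo1cKO PNX, 61.0 CPM in M3cKO PNX, 253 CPM in WT PNX and 46.2 CPM in sham general capillary cells, with Klrb1c at 0 in each library. The 14 myeloid genes summed to 674, 141, 618 and 123 CPM, with C1qa and Marco at 0 in each, and the 9 platelet and red cell genes to 99.7, 4.36, 269.7 and 20.7 CPM, with Alas2 at 0 in each. All 3 sums were thus higher in WT PNX than in M3cKO PNX and in sham. In WT PNX without both kinds of cells, 3 of 3 measured lymphoid genes, 4 of 5 myeloid genes and 2 of 2 platelet genes still exceeded sham 1.5-fold, and their part in the other differences was not tested.

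The replication genes stood apart from this pattern. Although cells with Mki67 or Top2a were excluded by the rule, 15 of 19 S-phase genes were higher in WT PNX and 0 lower, with a median log2 ratio of 1.15. Mcm5, a subunit of the replicative helicase, stood at 48.0 CPM in Foxo1cKO PNX (31.3 to 70.3), 17.4 CPM in M3cKO PNX, 43.0 CPM in WT PNX and 5.84 CPM in sham. Cdt1, which loads that helicase, exceeded its sham level 7.36-fold in WT PNX (3.20 to 19.0). Without both kinds of cells 16 of 18 S-phase genes were higher, and in male-type cells 13 of 18 with 2 lower, where 25.9% of all genes were higher and 25.9% lower. Over the 9 S-phase genes measured in both cell types, the median log2 ratio was 0.88 in general capillary cells and 0.01 in aerocytes, and the difference between the cell types was not tested.

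In general capillary cells, MHC genes were lower in WT PNX than in sham. Of 10 class II genes 6 were lower and 2 higher, and of 18 class I genes 8 were lower and 0 higher, with medians of -0.99 and -0.54. H2-Eb1, a class II beta chain, stood at 73.8 CPM in Foxo1cKO PNX, 341 CPM in M3cKO PNX, 110 CPM in WT PNX and 744 CPM in sham. Cd74, the class II invariant chain, was at 201, 469, 254 and 886 CPM, and the class I gene H2-Q7 at 546, 1180, 563 and 1537 CPM. H2-Q7 and H2-Q6 are near-identical, and reads could have been split between them. For each of the 3 genes sham was the highest library and M3cKO PNX the next, with WT PNX and Foxo1cKO PNX below. In WT PNX, H2-Eb1 was 6.80-fold lower than in sham (5.45 to 8.57). H2-DMa, which edits the class II groove, was 6.93-fold lower. The higher class II members were H2-DMb2 and Ctss, which are also B cell and myeloid genes. Without both kinds of cells, 6 of 11 class II genes were lower and 3 higher, and 6 of 18 class I genes were lower. Over the 5 class II genes measured in both cell types, the median log2 ratio was -1.08 in general capillary cells and 0.73 in aerocytes. Over the 18 class I genes it was -0.54 and -0.33. The difference between the cell types was not tested.

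Txnip, a thioredoxin inhibitor and a FOXO target, was low in the same pair of libraries as the MHC genes, at 421 CPM in Foxo1cKO PNX, 1189 CPM in M3cKO PNX, 356 CPM in WT PNX and 1145 CPM in sham. Of 24 FOXO target genes, 8 were lower and 1 higher in WT PNX than in sham. Interferon-stimulated genes were lower for 13 of 39 and higher for 2, and glucocorticoid-responsive genes lower for 6 of 13 and higher for 1. Lipid genes were higher for 14 of 27 and lower for 3. Their summed level went the other way, at 10790 CPM in WT PNX and 12889 CPM in sham. Without both kinds of cells, 10 of 24 lipid genes were higher and 3 lower, with a median of 0.31 against 0.75 in all cells. Fabp4, a fatty acid binding protein, stood at 1971 CPM in Foxo1cKO PNX, 254 CPM in M3cKO PNX, 874 CPM in WT PNX and 114 CPM in sham. A single cell held 38.9% of the Fabp4 UMIs in WT PNX. In cells with at most 5% mitochondrial UMIs its log2 ratio to sham was -4.66, against 2.88 in all cells, and the cause was not tested. Immediate early genes were higher for 8 of 18 and lower for 1, but lower for 8 of 18 and higher for 1 in male-type cells, where 25.9% of all genes passed in each direction.

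Of the other named genes, several were near 0 in some libraries and well measured in others. Sox11, a transcription factor gene at chr12:27334264-27342574, stood at 157 CPM in Foxo1cKO PNX, 157 CPM in M3cKO PNX, 10.4 CPM in WT PNX and 249 CPM in sham. Ifi204, an interferon-inducible gene at chr1:173747293-173766943, was at 0, 2.90, 70.4 and 0.531 CPM. Cd24a, a surface glycoprotein, was at 49.8, 441, 39.1 and 300 CPM. WT PNX was the single library with little Sox11 and the single one with Ifi204, whereas Cd24a was low in both Foxo1cKO PNX and WT PNX. Sox11 was 23.8-fold lower in WT PNX than in sham (12 to 55.5), Trim12a, a TRIM family gene, 20.6-fold and Cd24a 7.66-fold. Cyp26b1, which degrades retinoic acid, was 9.62-fold lower, Rab6b, a small GTPase, 9.58-fold, and Ifi208, another gene of the Ifi204 family, 6.46-fold. Ifi204 and Ifi208 have close paralogs, so reads may have been split among them. The coordinates are those of mm10, the genome build that the labels name.

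**Figure D2:**
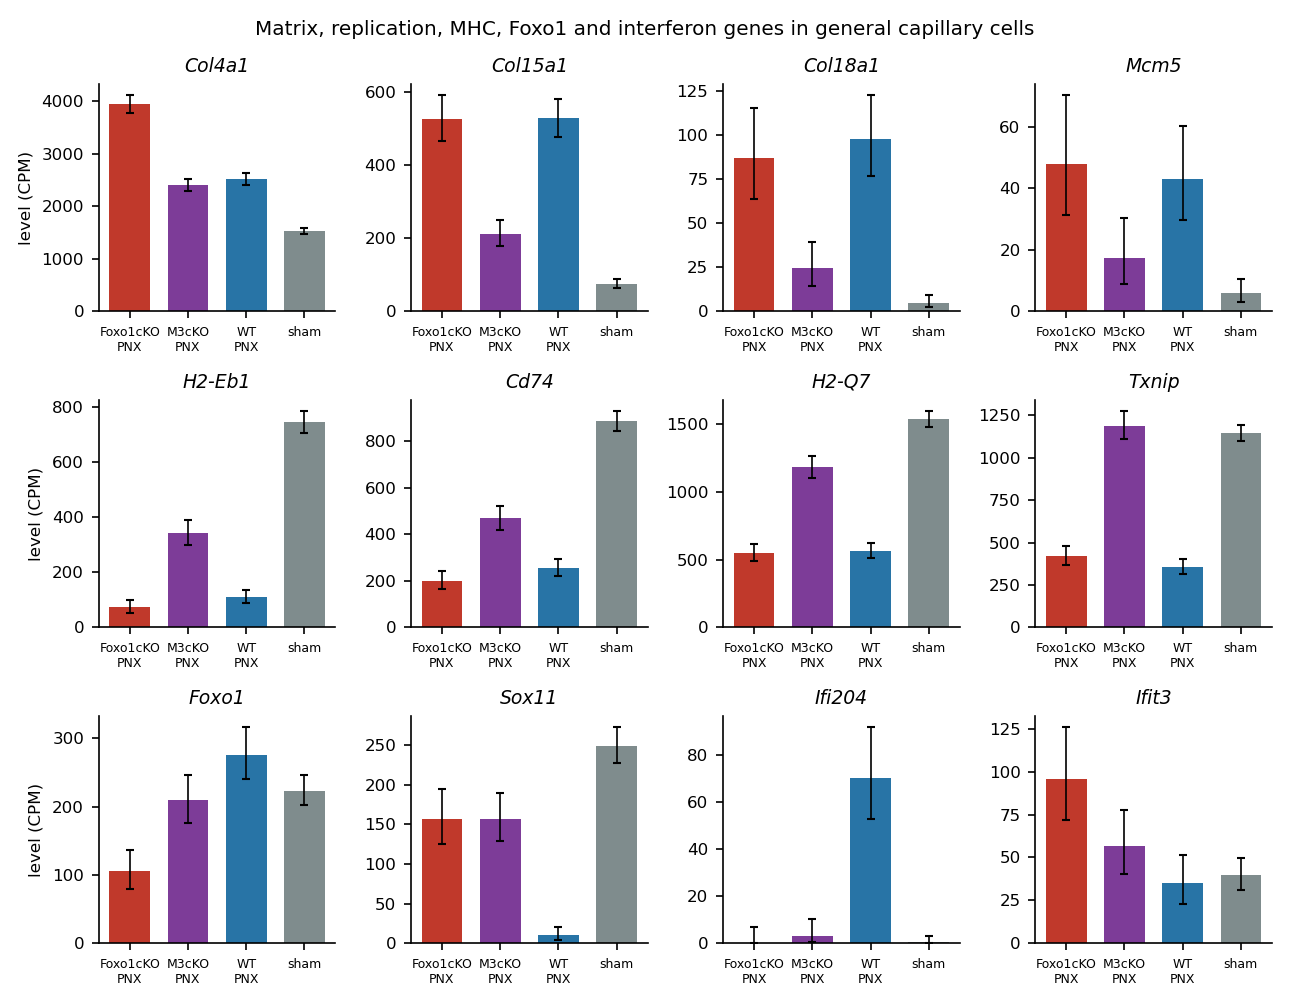
Levels in CPM of 12 genes in general capillary cells of the 4 libraries, with bars at the summed level and error bars at 95% exact Poisson intervals, which cover counting error only. Col15a1, Col18a1 and Mcm5 are lowest in sham, H2-Eb1, Cd74 and H2-Q7 are highest there, and Sox11 and Ifi204 separate WT PNX from the other 3 libraries.

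M3cKO PNX general capillary cells differed from WT PNX in clock, glucocorticoid-responsive and heat shock genes, which were higher, and in matrix, replication and adhesion genes, which were lower. The matrix and adhesion differences largely shrank when cells with venous UMIs or carried transcripts were left out, as given below. At 2-fold and 50 CPM, 130 of 4062 genes were higher (3.2%) and 201 lower (4.95%). The higher genes made up 39.3% of those called, and 58.4% with TMM scaling, which moved the median of all genes by 0.15. At 1.5-fold and 20 CPM, 8.85% of all genes were higher and 18.2% lower, so a list with few lower members is below the general share. One cell held over 20% of the UMIs for 3 of the higher genes and 50 of the lower.

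Clock genes were higher for 7 of 12 measured members and lower for 1. Nr1d1, which encodes the repressor REV-ERB alpha and lies at chr11:98767932-98775333, stood at 18.5 CPM in Foxo1cKO PNX (8.85 to 33.9), 170 CPM in M3cKO PNX (141 to 204), 11.7 CPM in WT PNX (5.36 to 22.3) and 25.0 CPM in sham (18.3 to 33.2). Per2, a repressor of the clock's core activator, was at 3.69, 59.5, 2.61 and 2.65 CPM. Dbp, an output transcription factor, was at 1.85, 45.0, 2.61 and 3.72 CPM. In all 3 genes M3cKO PNX stood alone above the others. Arntl, which encodes BMAL1 and is repressed by REV-ERB proteins, was at 35.1, 1.45, 30.0 and 21.2 CPM, with M3cKO PNX alone below. M3cKO PNX exceeded WT PNX 14.5-fold in Nr1d1 (7.37 to 32.5) and 22.8-fold in Per2 (5.93 to 195). Over the 12 clock genes measured in both cell types, the median log2 ratio was 1.02 in general capillary cells and 1.62 in aerocytes. The clock depends on the time of day, and the time at which tissue was taken is not given in the sources used here, so the hour and the genotype cannot be told apart.

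Glucocorticoid-responsive genes were higher for 8 of 16 members and lower for 1. Over the 14 genes measured in both cell types, the median log2 ratio was 0.69 in general capillary cells and 0.48 in aerocytes. Zbtb16, a zinc finger transcription factor gene at chr9:48654297-48836222, stood at 1.85 CPM in Foxo1cKO PNX, 166 CPM in M3cKO PNX, 5.21 CPM in WT PNX and 8.50 CPM in sham. Fkbp5, a co-chaperone of the glucocorticoid receptor, was at 24, 78.4, 19.6 and 12.2 CPM. Tsc22d3, which encodes the leucine zipper protein GILZ, was at 66.4, 382, 99.0 and 213 CPM. M3cKO PNX exceeded WT PNX 31.8-fold in Zbtb16 (12.1 to 119), the largest ratio among the named higher genes. Map3k6, a stress kinase, stood at 20.3, 288, 56.0 and 63.7 CPM.

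Heat shock genes were higher for 11 of 18 members and lower for 1, with a median of 0.79. Aerocytes of the same libraries had a median of 0.73 over these 18 genes. The inducible HSP70 genes Hspa1b and Hspa1a are near-identical, so their split is uncertain. Hspa1b stood at 175 CPM in Foxo1cKO PNX, 1453 CPM in M3cKO PNX, 189 CPM in WT PNX and 368 CPM in sham, and Hspa1a at 99.7, 714, 92.5 and 193 CPM. Hsph1, an HSP70 exchange factor, was at 16.6, 116, 28.7 and 39.8 CPM, and Hsp90aa1, the inducible HSP90, at 292, 992, 493 and 443 CPM. M3cKO PNX was the highest library for each. The ratio to WT PNX was 7.69 for Hspa1b (6.46 to 9.22) and 4.05 for Hsph1 (2.50 to 6.82). In male-type cells the log2 ratio of Hsph1 was 0.15, against 1.85 in all cells.

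**Figure D3:**
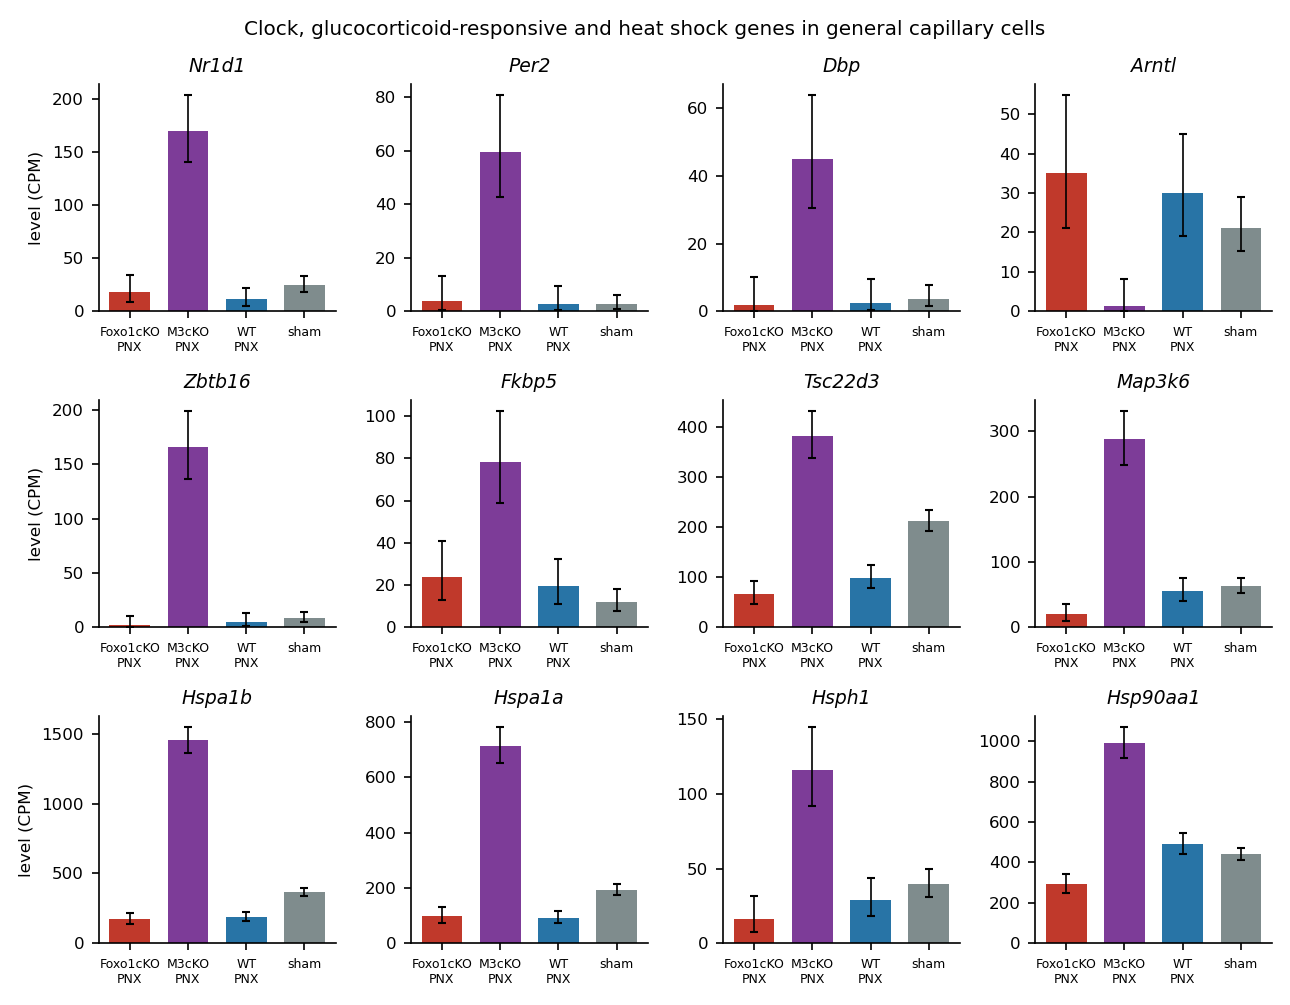
Levels in CPM of 4 clock, 4 glucocorticoid-responsive and 4 heat shock genes in general capillary cells of the 4 libraries, with 95% exact Poisson intervals. M3cKO PNX is the highest library for 11 of the 12 genes, and for Arntl it is the lowest.

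Promoters of some genes of these lists hold known regulatory letters. The promoters below, from RefSeq on build GRCm38.p6, run from 250 bases before to 50 after the start, 5′ to 3′ on the gene's strand, with the motif in capitals. They are shown because these genes carry the M3cKO difference and hold the letters that the clock, heat shock factor or the glucocorticoid receptor is known to bind. Per1, a clock repressor (chr11:69098699-69098998, plus strand), and Tef, a clock output factor (chr15:81802423-81802722, plus strand), hold the E-box CACGTG, 166 and 127 bases before the start. Arntl (chr7:113207261-113207560, plus strand) holds AGTAGGTCA, a REV-ERB and ROR element, 28 bases after the start. Hspa1b (chr17:34959189-34959488, minus strand) holds GAANNTTC, a heat shock element core, 104 bases before the start. Hsph1 (chr5:149636287-149636586, minus strand) holds the longer form, in which TTC, GAA and TTC follow each other with 2 free bases between, 36 bases after it. Map3k6 (chr4:133240568-133240867, plus strand) holds the palindromic glucocorticoid response element, GNACA and TGTNC with 3 free bases between, 181 bases before it.
Per1: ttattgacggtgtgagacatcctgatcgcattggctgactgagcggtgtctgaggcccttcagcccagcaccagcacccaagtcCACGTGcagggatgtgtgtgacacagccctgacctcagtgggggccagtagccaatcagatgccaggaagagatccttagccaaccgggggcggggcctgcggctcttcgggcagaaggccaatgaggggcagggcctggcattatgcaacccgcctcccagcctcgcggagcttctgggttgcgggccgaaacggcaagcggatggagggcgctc
Tef: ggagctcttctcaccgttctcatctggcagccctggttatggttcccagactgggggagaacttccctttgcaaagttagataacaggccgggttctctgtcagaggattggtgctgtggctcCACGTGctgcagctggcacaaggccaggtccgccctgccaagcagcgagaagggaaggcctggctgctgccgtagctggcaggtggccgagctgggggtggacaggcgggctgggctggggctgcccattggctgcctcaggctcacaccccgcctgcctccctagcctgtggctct
Arntl: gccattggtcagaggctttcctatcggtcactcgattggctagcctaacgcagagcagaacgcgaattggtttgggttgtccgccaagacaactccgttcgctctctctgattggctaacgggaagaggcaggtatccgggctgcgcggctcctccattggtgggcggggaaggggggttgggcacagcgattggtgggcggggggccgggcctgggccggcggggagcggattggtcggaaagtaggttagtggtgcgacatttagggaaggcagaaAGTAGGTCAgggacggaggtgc
Hspa1b: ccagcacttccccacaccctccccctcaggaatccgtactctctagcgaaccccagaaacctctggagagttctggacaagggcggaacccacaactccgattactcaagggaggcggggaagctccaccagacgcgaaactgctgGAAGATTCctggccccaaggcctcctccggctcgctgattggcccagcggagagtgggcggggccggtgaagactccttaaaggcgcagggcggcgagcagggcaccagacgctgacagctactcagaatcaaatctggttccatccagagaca
Hsph1: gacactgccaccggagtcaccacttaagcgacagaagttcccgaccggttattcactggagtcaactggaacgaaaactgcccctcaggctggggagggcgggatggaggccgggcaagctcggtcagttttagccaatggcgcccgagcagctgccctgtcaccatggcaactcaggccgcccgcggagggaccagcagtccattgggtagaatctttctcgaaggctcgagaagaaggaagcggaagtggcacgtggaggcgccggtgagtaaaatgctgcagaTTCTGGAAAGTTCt
Map3k6: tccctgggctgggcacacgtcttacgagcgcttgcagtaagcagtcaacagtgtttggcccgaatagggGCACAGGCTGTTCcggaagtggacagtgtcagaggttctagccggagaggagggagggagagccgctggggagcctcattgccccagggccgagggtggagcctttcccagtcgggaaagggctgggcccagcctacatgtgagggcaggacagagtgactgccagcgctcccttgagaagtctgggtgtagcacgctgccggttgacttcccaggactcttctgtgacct

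With both strands searched, CACGTG was in 7.15% of 32851 RefSeq promoters of this length, AGTAGGTCA in 0.192%, GAANNTTC in 7.86%, the longer heat shock form in 0.603% and the glucocorticoid response element in 0.475%. The longer heat shock form contains GAANNTTC. Of the 7 clock genes higher in M3cKO PNX, 6 had a promoter in the table, and 3 (Tef, Per1 and Cry1) held CACGTG. Of the 11 heat shock genes, 8 had one and 7 held GAANNTTC. Of the 8 glucocorticoid-responsive genes, 7 had one and 2 (Mt1 and Map3k6) held the response element. The percentages are of single promoters, whereas a gene was counted if any of its promoters held the motif, so the 2 are not like for like. A match describes these letters only. Per1, whose promoter is shown, stood at 70.1 CPM in Foxo1cKO PNX, 181 CPM in M3cKO PNX, 63.9 CPM in WT PNX and 140 CPM in sham, and Tef at 9.23, 77.0, 14.3 and 7.43 CPM.

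Matrix genes were lower in M3cKO PNX than in WT PNX for 19 of 34 members and higher for 3, with a median of -0.95 against -0.11 over all genes. Their summed level was 14072 CPM in M3cKO PNX and 15068 CPM in WT PNX. Over the 22 matrix genes measured in both cell types, the median was -0.41 in general capillary cells and -0.36 in aerocytes. Mgp stood at 428 CPM in Foxo1cKO PNX, 10.2 CPM in M3cKO PNX, 546 CPM in WT PNX and 40.4 CPM in sham. Fbln5, an elastic fibre protein, was at 203, 14.5, 257 and 28.7 CPM, and Eln, elastin, at 304, 166, 839 and 134 CPM. In Mgp and Fbln5, M3cKO PNX and sham were low and the other 2 libraries high. The venous gene sum was 1609 CPM in M3cKO PNX and 3061 CPM in WT PNX. Without both kinds of cells 8 of 25 matrix genes were lower and 5 higher, with a median of -0.18 for the list. Of all genes, 18.9% were lower and 9.86% higher in that setting. Mgp then differed by -1.77 in place of -5.18 on the log2 scale, and Bgn, biglycan, by 0.011 in place of -2.85. Adhesion genes went the same way, with 16 of 27 lower and 4 higher in all cells, but 4 of 19 lower and 5 higher without both kinds. Over the genes measured in all cells, the adhesion median was then -0.17, against -0.12 over all genes. That list holds 3 genes that mark the removed cells, so their levels fall by construction when those cells are left out. Without these 3 genes, 13 of 24 were lower and 4 higher in all cells. Ackr1, the chemokine receptor of venules, had no UMI in M3cKO PNX and stood at 91.2 CPM in WT PNX.

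The S-phase, clock, glucocorticoid-responsive, heat shock and lipid lists had like counts without both kinds of cells. S-phase genes were lower for 16 of 19 members and higher for 0, and for 16 of 18 without both kinds. Clock genes were then higher for 9 of 12, glucocorticoid-responsive genes for 9 of 15 and heat shock genes for 11 of 18, with 1, 1 and 0 lower. Lipid genes were lower for 14 of 27 members and higher for 4, and for 12 of 25 and 3 of 25 without both kinds. Of the 10 further general capillary genes, 0 were higher and 2 lower, where 18.2% of all genes were lower. In all cells the list as a whole was thus near the general share. The 2 lower genes were Aplnr, 3.09-fold lower (2.37 to 4.08), and Cxcl12, a chemokine. Cxcl12 stood at 1303 CPM in Foxo1cKO PNX, 595 CPM in M3cKO PNX, 1165 CPM in WT PNX and 1226 CPM in sham. M3cKO PNX was the single library in which these 2 genes were low. Of the 10 genes, 4 were lower without both kinds of cells, where 18.9% of all genes were lower.

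Timp3, an inhibitor of matrix proteases encoded at chr10:86300372-86349506, stood at 500 CPM in Foxo1cKO PNX, 2863 CPM in M3cKO PNX, 481 CPM in WT PNX and 389 CPM in sham, 5.96-fold higher than in WT PNX. Plat, the tissue plasminogen activator, was at 70.1, 627, 100 and 110 CPM. Lyve1 was at 771, 5081, 1385 and 2483 CPM, and Ly6c1, a surface protein of lung endothelium and monocytes, at 1831, 4067, 1358 and 2108 CPM. All 4 were highest in M3cKO PNX. Nmnat1, an enzyme of NAD synthesis, was 9.66-fold higher than in WT PNX, Sox11 15.0-fold and Cd24a 11.3-fold. Among the lower genes, Bmp4, a secreted morphogen, was 7.32-fold lower (4.82 to 11.6), Ctsh 28.3-fold and Vcam1 12-fold. The log2 ratio of Ctsh was -1.69 without both kinds of cells, against -3.97 in all cells. That of Vcam1 was -1.63, against -3.16, and that of Myof, a membrane repair protein, was -0.84, against -3.37.

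**Figure D4:**
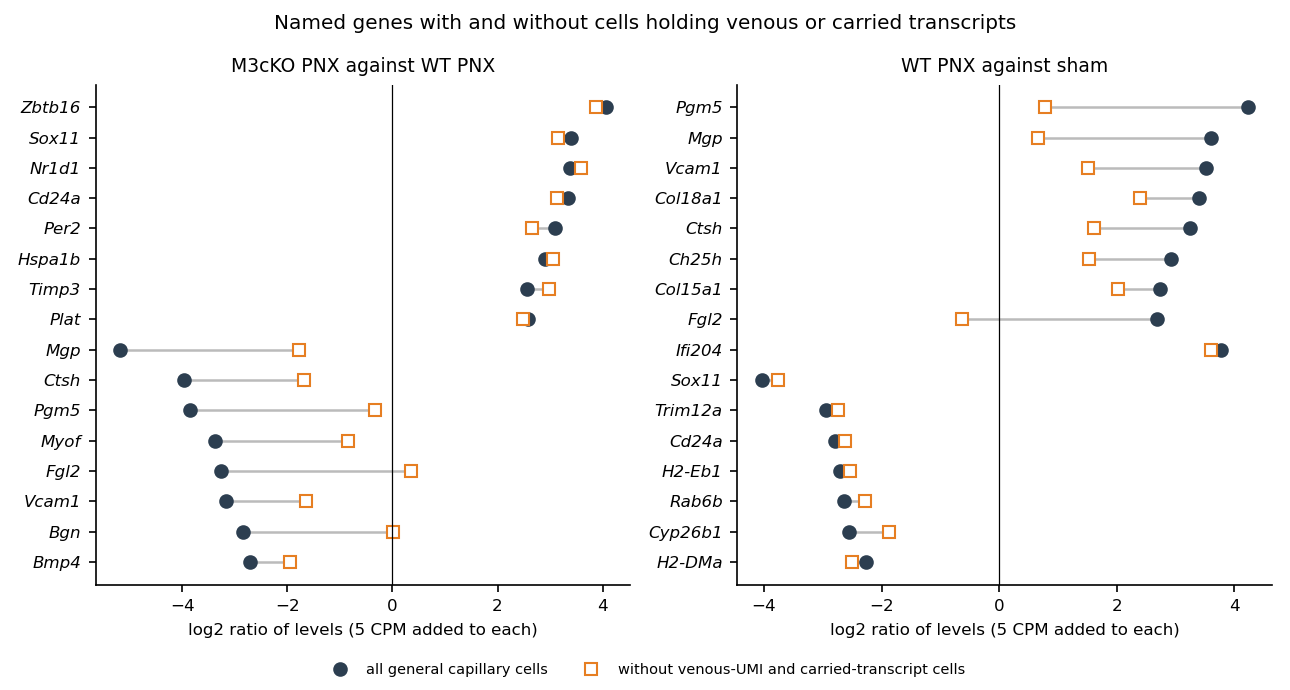
Log2 ratios of levels (5 CPM added to each) for named genes in M3cKO PNX against WT PNX and in WT PNX against sham, in all general capillary cells (filled circles) and without the cells that hold 3 venous UMIs or over 2% carried transcripts (open squares). Zbtb16, Nr1d1, Hspa1b, Sox11 and H2-Eb1 hardly move, whereas Mgp, Pgm5, Fgl2 and Bgn move towards 0 or past it. Vcam1 is among the genes that mark the removed cells, so it moves towards 0 by construction.

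Foxo1cKO PNX general capillary cells were nearer to WT PNX: at 2-fold and 50 CPM, 40 of 4103 genes were higher (0.975%) and 40 lower (0.975%). One cell held over 20% of the UMIs for 11 of the higher and 13 of the lower genes. At 1.5-fold and 20 CPM the shares of all genes were 8.46% higher and 8.29% lower. Foxo1 itself, at chr3:52268336-52353221, stood at 105 CPM in Foxo1cKO PNX (79.7 to 136), 209 CPM in M3cKO PNX (176 to 246), 276 CPM in WT PNX (240 to 316) and 224 CPM in sham (203 to 246). It was 2.63-fold lower than in WT PNX (1.95 to 3.58), and transcripts were still present in the library labelled Foxo1cKO. The deleted exon is not given in the sources used here, and droplet UMIs are counted at 1 end of a transcript, so a transcript without an inner exon can still be counted. In male-type cells the log2 ratio was -0.31 and without both kinds of cells -2.02, against -1.35 in all cells. Rhoj, the endothelial GTPase that the series is named for, at chr12:75308322-75401456, was at 227, 324, 268 and 307 CPM, and no pair of libraries compared here was 1.5-fold apart in it.

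FOXO target genes were lower in Foxo1cKO PNX for 4 of 22 members and higher for 1. Foxo1 is one of these members. Interferon-stimulated genes were higher for 18 of 41 members and lower for 1, with a median of 0.43 against -0.00 over all genes. Over the 35 interferon genes measured in both cell types, the median was 0.43 in general capillary cells and 0.42 in aerocytes. Isg15, a ubiquitin-like protein, stood at 73.8 CPM in Foxo1cKO PNX, 18.9 CPM in M3cKO PNX, 24.8 CPM in WT PNX and 28.1 CPM in sham. Ifit3, which binds foreign RNA with its partners, was at 96.0, 56.6, 35.2 and 39.8 CPM. Both were thus highest in Foxo1cKO PNX. Isg15 was 2.98-fold higher than in WT PNX (1.69 to 5.45) and Ifit3 2.73-fold. Without both kinds of cells 12 of 43 interferon genes were higher and 1 lower. The share of all genes at 1.5-fold is not given for that setting, so this count cannot be set against a general share. Over the genes measured in all cells, the interferon median was 0.43 in that setting, against 0.003 over all genes. The 2-fold counts over all genes were then 66 higher and 62 lower, against 40 and 40 in all cells. In male-type cells 30 of 41 were higher, where 27.5% of all genes were higher.

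Ifi204 ran against the rest of that list, with no UMI in Foxo1cKO PNX, and was at least 12.7-fold lower than in WT PNX, counting 3 UMIs as the floor. Ifi208 was 4.90-fold higher and Sox11 15.0-fold. C1qtnf9, a secreted C1q-like protein, was 4.82-fold higher, Gdpd3, a lysophospholipase, 4.19-fold, and Clca3a1, a secreted chloride channel regulator, 2.70-fold. Eln was 2.76-fold lower, Arid5a, which stabilises cytokine transcripts, 3.06-fold, and Map3k6 2.76-fold. Cd79a was 3.35-fold lower and H2-DMb2 3.62-fold. Without both kinds of cells, the log2 ratio of Eln was -0.61, against -1.45 in all cells. Adhesion genes were lower for 8 of 26 members and higher for 2. Matrix genes were higher for 7 of 36 and lower for 4, with Col4a1 at 3942 CPM in Foxo1cKO PNX against 2516 CPM in WT PNX. The S-phase genes, which separated WT PNX from sham, had a median of -0.00 here.

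**Figure D5:**
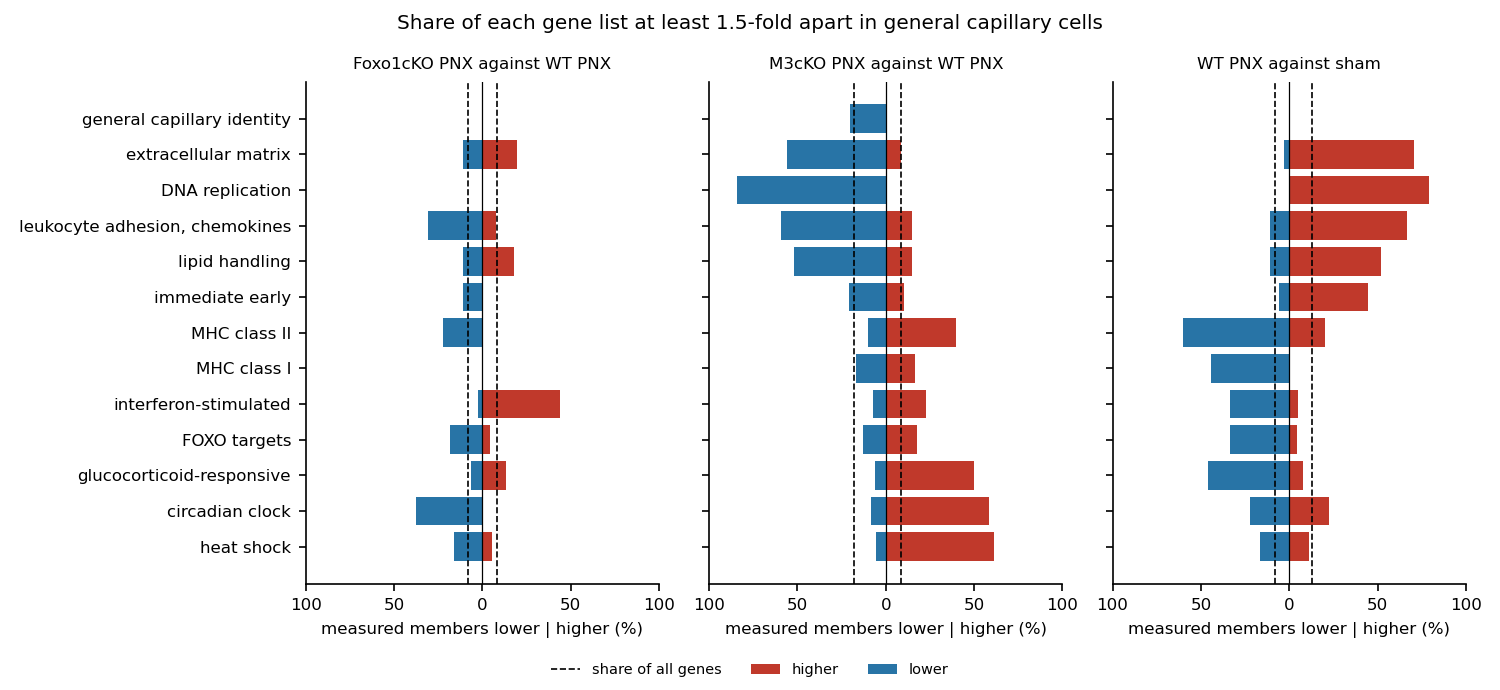
Share of the measured members of 13 gene lists at least 1.5-fold higher (right) or lower (left) in general capillary cells, for 3 pairs of libraries, with dashed lines at the shares over all genes. Clock, glucocorticoid-responsive and heat shock genes reach furthest right in M3cKO PNX against WT PNX, interferon genes in Foxo1cKO PNX against WT PNX, and DNA replication and matrix genes in WT PNX against sham.

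The comparisons of M3cKO PNX and of Foxo1cKO PNX both use the WT PNX library, so a gene that is unusual there, such as Sox11 or Ifi204, appears in both and again in WT PNX against sham. Of the genes called in general capillary cells, aerocytes went the same way at 1.5-fold for 85 of 151 higher and 47 of 80 lower in WT PNX, for 81 of 130 and 105 of 201 in M3cKO PNX, and for 11 of 40 and 17 of 40 in Foxo1cKO PNX. Of all genes tested, aerocytes were 1.5-fold higher for 9.22% and lower for 5.38% in WT PNX, for 7.71% and 12.6% in M3cKO PNX, and for 3.44% and 4.19% in Foxo1cKO PNX. Both cell types come from the same libraries, so a difference of a whole library appears in both.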

How the data were processed

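Per the labels, lung cells were depleted of CD45+ cells, selected for CD31 and sequenced as single cells, with mapping to mm10 by Cell Ranger 2.1.1. R 3.4.4 is named in the submitters' processing notes and software version 3.0.0 in the file headers. The deposited values are UMI counts of each gene in each barcode, not normalized by the authors, and how barcodes were reduced to cells is not given in the sources used here. Cells with at least 500 genes and at most 10% mitochondrial UMIs were kept. Endothelial cells had 2 or more UMIs over Pecam1, Cdh5, Cldn5, Egfl7, Ramp2 and Tie1 and none of Ptprc, Epcam, Col1a1 or Col1a2. Doublets were left in, and cells marked by Scrublet (scanpy 1.11.5) were removed as an alternative.

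Counts were summed over the general capillary cells of a library and given as CPM with 95% exact Poisson intervals. Ratios have exact conditional binomial intervals, and log2 ratios have 5 CPM added to each level, which understates low genes. With 1 library in each group, differences between libraries have no replicate check. Cell types were compared with edgeR 4.0.16 (R 4.3.3) on summed counts of 4 libraries with the library as block, since both cell types of a library come from the same animals, and with DESeq2 1.42.0 as an alternative. Adjusted p-values are Benjamini-Hochberg over all genes tested. The SE of a log2 fold change was derived from the test, as its absolute value over the square root of the F statistic. Scripts were tested on simulated data.

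Between libraries, up to 10 genes in each direction were named by the size of their log2 ratio among those 2-fold apart, seen in 5% of cells, with no cell over 20% of the UMIs and not over 5 times higher outside the endothelium, and between cell types up to 12 by fold change. To these come 4 genes a list, the marker genes, Foxo1 and Rhoj, of which a part is described. Members and gene lists were chosen with earlier results of these data known. Lists without a count here, of 35 in all, are not described. Promoters are those of RefSeq, and gene positions those of GENCODE vM21 on mm10.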

Additional observations from a re-analysis of the deposited data

Results flagged for a closer look

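For 7 genes, general capillary cells and aerocytes of the same libraries differed in opposite directions, and the difference between the cell types was not tested. In WT PNX against sham, Angpt2, an antagonist of the Tie2 receptor, had log2 ratios of -1.357 for general capillary cells and 1.133 for aerocytes. Id2, an inhibitor of helix-loop-helix factors, had 1.404 and -0.903. Spry1, an inhibitor of growth factor signalling, had -0.627 and 1.235. In Foxo1cKO PNX against WT PNX, the metallothionein gene Mt1 had 2.018 in general capillary cells and -2.590 in aerocytes, and Eln had -1.448 and 1.671. Thbs1, thrombospondin 1, had -1.210 and 0.834, and the chemokine gene Cxcl9 had -3.141 and 2.288. In general capillary cells, a single cell held over 50% of the UMIs of Mt1 and of Cxcl9.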

How the results depend on the processing

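Alternatives without general capillary cells with 3 venous UMIs, without cells over 2% carried transcripts, and without both, and the adhesion list without its 3 marking genes, were chosen after seeing the data. Counts are given as higher and lower genes in WT PNX against sham, M3cKO PNX against WT PNX and Foxo1cKO PNX against WT PNX. With 20 CPM added, 53 genes were lower in WT PNX, 124 lower in M3cKO PNX, and 15 and 18 were called in Foxo1cKO PNX. With no minimum level, the counts were 685 and 238, 291 and 1023, and 355 and 423. With a minimum of 100 CPM they were 71 and 52, 92 lower in M3cKO PNX, and 11 and 13. TMM scaling gave 127 lower genes in WT PNX. In cells with at most 5% mitochondrial UMIs they were 369 and 264, 337 and 561, and 377 and 375. In male-type cells they were 575 and 509, 583 and 669, and 607 and 572. Thinning to 1500 UMIs gave 88 higher genes in WT PNX. In Foxo1cKO PNX, at least 5 marker UMIs gave 86 and 80, leaving out the 5% deepest cells 63 higher, leaving out cells with venous UMIs 61 higher, and leaving out both kinds 66 and 62. Few cells are left in several of these settings, and the cause was not tested.

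The share of general capillary cells was 10.96% in Foxo1cKO PNX, 14.5% in WT PNX and 20.3% in sham at 5% mitochondrial UMIs. Thinned, it was 8.32% in Foxo1cKO PNX and 12.3% in WT PNX. Among male-type cells it was 7.32% in Foxo1cKO PNX and 11.7% in M3cKO PNX, with 4.14% in WT PNX and, for sham, 19.6%. With 5 marker UMIs it was 5.12%, 10.9%, 7.10% and 21.2% across the libraries, from Foxo1cKO PNX and M3cKO PNX to WT PNX and sham, and with 2 it was 8.40%, 20.2%, 10.3% and 26.3%.

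Against aerocytes, DESeq2 called 974 genes higher and 898 lower, and 5% mitochondrial UMIs left 856 and 755. Against venous cells, DESeq2 called 344 and 477, and 5% mitochondrial UMIs left 83 and 108. Without the library as replicate block, 104 and 159 genes were called against venous cells and 1049 and 959 against aerocytes. Leaving out 1 library at a time gave 1252 to 1456 higher and 1123 to 1309 lower genes against aerocytes, and 450 to 559 higher and 624 to 743 lower against venous cells. Of 415 values of named genes between cell types, 10 lost the call: Cd36 in 6 settings, Clec1a at 5% mitochondrial UMIs, and Aplnr, Lyve1 and Sftpc against venous cells without the block.

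Where the ratio in all cells passed 1.5-fold, signs reversed in 16 of 1408 values of genes named between libraries and 5 of 672 medians of lists. With medians nearer 0 counted, 66 of the 672 changed sign, among them the immediate early list in WT PNX against sham, at 0.45 in all cells and -0.48 in male-type cells. In WT PNX against sham, at 5% mitochondrial UMIs, Fabp4 was -4.66, Fgl2 -0.11 and Igfbp7 -0.89, and Spry1 was 0.088 in male-type cells. Without venous-UMI cells Fgl2 was -0.64 and the venous list -0.29, and without both kinds -0.63 and -0.22. In M3cKO PNX against WT PNX, at 5% mitochondrial UMIs, Bgn was 2.31, Pgm5 1.22 and the venous list 0.087. Without venous-UMI cells Fgl2 was 0.37 and the venous list 0.43, and without both kinds Bgn was 0.011, Fgl2 0.35 and the venous list 0.35. In Foxo1cKO PNX against WT PNX, H2-DMb2 was 0.24 at 5% mitochondrial UMIs, Mt1 -0.59 with 5 marker UMIs, C1qtnf9 -0.10 when thinned, and Gdpd3 -0.57 and Mt1 -0.029 in male-type cells. The venous list loses its own cells by construction there; the cause was not tested for the others.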
